A study of Saccharomyces cerevisiae with 30 samples.

Results

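The sixth of 8 independently evolved tetraploid yeast lines is described here, through the 3 arrays whose titles name evolved 6 over ancestral 6 cells, out of 30 arrays in the series. Both cultures on each array were budding yeast, Saccharomyces cerevisiae, of the W303 background. Evolved 6 was a single clone taken from the line after 1000 generations of daily dilution in rich medium at a permissive temperature, and it was the fittest of the colonies tested from that culture. Ancestral 6 was the tetraploid from which the line was started. According to the study's methods all strains, ancestors included, lacked SPO11, a gene needed for meiotic recombination, and the tetraploids carried a pair of copies of each mating type. Both cultures were grown to log phase in YPD at 36°C before RNA was extracted. The evolved culture was labelled with Alexa Fluor 647 and the ancestral culture with Alexa Fluor 555, so a positive log2 ratio means more RNA in the evolved clone. The labels call the 3 arrays technical replicates, so the tests below measure technical spread and not the spread between independent cultures or clones. The other 7 lines were treated in the same way, each against its own ancestor, on 3 arrays a line. The remaining 6 arrays set cultures of line 4 against a diploid and were used here only in the estimate of spread and in correlations between rows over all 30 arrays.

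A tetraploid cell carries 4 chromosome sets, which in budding yeast brings larger cells, frequent chromosome loss and sensitivity to many stresses, heat among them. Growth at 36°C induces heat-shock proteins and chaperones in yeast, and slower growth goes with less RNA for ribosomal proteins and ribosome assembly factors. The TORC1 complex and its target kinase Sch9 couple nutrient supply to these growth genes. Expression ratios between an evolved clone and its ancestor at 36°C ask which transcripts came to differ in a line after long propagation as a tetraploid.

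The deposited table gave a yeast systematic name beside each of 6377 rows, and for nuclear genes the values did not bear these names out. In rows listed as genes that rise and fall together in yeast, such as ribosomal proteins, proteasome subunits and histones, the mean pairwise correlation over the 30 arrays lay between −0.024 and 0.015 in 8 lists, beside 0.0018 over all rows. Ribosomal protein genes often come in 2 near-identical copies, A and B. Of 59 pairs so listed, 29 correlated above 0 and the median was −0.0083. A ninth list, the 28 rows listed as mitochondrially encoded at the top of the table, had a mean pairwise correlation of 0.119. Those rows are neighbours in a stretch of the table that was high as a whole, described further below, so their likeness cannot be told apart from their place. Changes are therefore given by row, counted from 1 at the top of the table, and no gene is named for any of them. The arrays of line 6 held 6360, 6355 and 6358 values, with 58 empty cells in all and 0 cells at the floor, and the other 27 arrays held 6092 to 6360 values. The median log2 ratio of the line 6 arrays lay at −0.014, −0.011 and −0.0078. The number of arrays limits the precision.

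Line 6 replicates differed among themselves before any row was called, replicates 1 and 3 the most. Over rows, the Pearson correlation was 0.768 between replicates 1 and 2, 0.699 between replicates 2 and 3, and 0.468 between replicates 1 and 3 (6352 to 6355 rows). Rows of 1 array are not independent, so these values describe the arrays and carry no p. In 76.7% of rows replicates 1 and 2 agreed in sign, while replicates 1 and 3 did in 61.9%. Against the mean of the other 2 arrays, the deviation over rows had an SD of 0.277 for replicate 1, 0.179 for replicate 2 and 0.284 for replicate 3, so replicate 1 deviated about as much as replicate 3. Array weights estimated in limma were 0.324, 0.438 and 0.455, of which that of replicate 1 was the lowest. The spread of all log2 ratios was narrower in replicate 3, with an SD of 0.307, against 0.372 in replicate 1 and 0.348 in replicate 2. The median SD of a row over the 3 arrays was 0.136 in line 6, against 0.0803 to 0.161 in the other lines, where line 1 alone was higher.

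**Figure D1:**
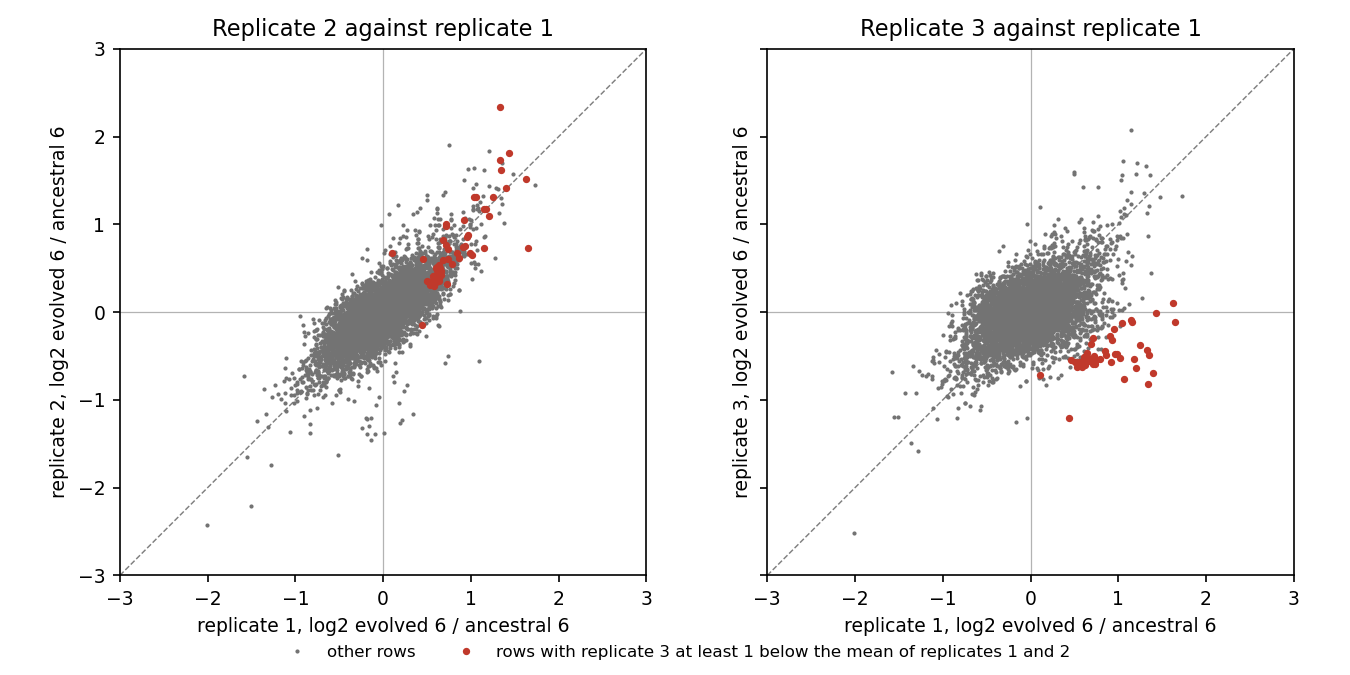
Log2 evolved 6 over ancestral 6 on replicate 2 (left) and replicate 3 (right) against replicate 1, 1 point per row of the table, with the line of equality dashed. The 58 rows in red lie at least 1 below the mean of replicates 1 and 2 on replicate 3, and 57 of them are above 0 on both other arrays and 57 below 0 on replicate 3.

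Where replicate 3 was far from the others, it was almost always below them. In 59 of 6350 rows it differed from the mean of replicates 1 and 2 by at least 1 on the log2 scale, 1 row above and 58 below. Replicate 1 was that far from the mean of replicates 2 and 3 in 5 rows, all above, and replicate 2 from its fellow arrays in 25 rows, 18 below. Among arrays of other lines, replicate 3 of line 5 had more such rows, 73, of which 50 lay below. The 58 rows in which line 6 replicate 3 lay below, its low set, had medians of 0.71 on replicate 1, 0.61 on replicate 2 and −0.54 on replicate 3. The lowest by this measure, row 3971, stood at 1.33 on replicate 1, 2.34 on replicate 2 and −0.82 on replicate 3. Row 328 stood at 1.40 and 1.41 on replicates 1 and 2, and at −0.69 on replicate 3. On these rows the first 2 arrays would be read as higher RNA in evolved 6, and the third as lower.

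The same rows also separated arrays of other lines. Replicate 1 of line 2 lay below replicate 2 of line 2 in 58 of the 58 rows, beside 46.3% of all rows. Replicate 1 of line 8 lay below replicate 3 of line 8 in 57 of the 58 rows, beside 45.8% of all rows. Over all rows, the deviation of line 6 replicate 3 from its fellow arrays correlated with the like deviation of line 2 replicate 1 (r = 0.615) and of line 8 replicate 1 (r = 0.678). It ran opposite to the deviation of line 2 replicate 2 (r = −0.692), over 6334 rows for line 2 and 6339 for line 8. The deviation of line 6 replicate 1 ran the other way, with r = 0.537 for line 2 replicate 2 and r = −0.517 for line 8 replicate 1. For lines 1, 3, 4, 5 and 7 the correlations of the replicate 3 deviation lay between −0.224 and 0.173. A pattern shared by single arrays of different clones thus moved with replicates 1 and 3 in opposite directions. The deviations of the arrays of a line cancel out within a row, so opposite signs within a line are partly set by the measure. The part of this pattern in the results below was not tested.

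In evolved 6, 47 of 6360 rows (0.739%) differed from ancestral 6, 35 higher (0.55%) and 12 lower (0.189%). A row was called at a Benjamini-Hochberg adjusted p under 0.05 in limma, a linear model fitted across all rows, and a mean that reached a size of 1 on the log2 scale, a 2-fold difference. The spread behind this p was pooled over the arrays of all 10 groups, most of them not of line 6. An SD over the 3 arrays of line 6, printed below, is therefore not the spread that the p rests on. On the adjusted p alone 2542 rows (40%) passed, 1220 higher and 1322 lower, so most rows past the test differed by less than 2-fold. Of the 47 calls, 46 had the same sign on all 3 arrays and 28 reached a size of 1 on each of them. Row 12 was the exception in sign, with 1.43 and 1.82 on replicates 1 and 2 and −0.01 on replicate 3. The methods' t-test, at the 2-fold and unadjusted threshold of the study, gave 17 rows, 15 higher and 2 lower. After Benjamini-Hochberg adjustment it gave 0 rows at that fold, while 1675 rows had an unadjusted p under 0.05 by it and 3037 by limma.

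The row with the most RNA in evolved 6 relative to ancestral 6 was row 5328. Its log2 ratios were 1.15, 1.62 and 2.08 on replicates 1, 2 and 3, a mean of 1.61 ± 0.46 (SD, n = 3), with limma's adjusted p = 5.22e-11. Row 2517 followed with 1.36, 1.70 and 1.56. Row 3965 had 1.21, 1.83 and 1.57. These 3 rows were above 1 on every array, though replicate 1 gave the lowest value in each. Row 2045 had 1.73, 1.45 and 1.32, and here replicate 1 gave the highest value. The narrowest spread among the 10 highest rows was that of row 4144, at 1.29, 1.41 and 1.36, a mean of 1.35 ± 0.06 (SD, n = 3). The other 5 of the 10 highest rows (5934, 5887, 1344, 6185 and 3436) had means of 1.46, 1.46, 1.45, 1.42 and 1.41.

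The lowest row, 3334, was further from 0 than any higher row. Its log2 ratios were −2.01, −2.42 and −2.52, a mean of −2.32 ± 0.27 (SD, n = 3), with limma's adjusted p = 3.53e-10. Row 2745 had −1.51, −2.21 and −1.20, a mean of −1.64 ± 0.52 (SD, n = 3), and the spread came from replicate 2. Row 3490 had −1.28, −1.74 and −1.58. Row 3131 had −1.55, −1.65 and −1.20. In all 4 rows the 3 arrays lay below −1. Row 5126 had nearly equal values of −1.11, −1.13 and −1.09. The remaining 5 of the 10 lowest rows (3185, 4790, 2437, 4991 and 930) had means from −1.24 to −1.14, and in 4 of these 5, all but row 4790, an array stood nearer 0 than −1.

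Most of the changes in line 6 were also called in another line. Of the 47 calls, 34 were called in the same direction in at least 1 other line, 25 higher and 9 lower, and 13 were not. Line 2 shared the most, with 28 calls, which is 59.6% of the line 6 calls and 30.4% of the 92 calls of line 2 (background 1.45% of rows in line 2). Line 4 shared 13 calls, 27.7% of those of line 6 and 13 of the 521 of line 4 (background 8.39%). Line 8 shared 5 of its 13 calls (background 0.204%), line 3 shared 2 of 37 (0.584%), line 5 shared 2 of 23 (0.366%) and line 1 shared 1 of 39 (0.624%). Line 7 shared 0 of its 14 calls (0.222%). A count by lines gave 19 line 6 calls found in 1 other line, 14 in 2 and 1 in 4. Of the 47 calls, 7 were called in the opposite direction elsewhere, 3 in line 1, 2 in line 3 and 3 in line 4, with row 4049 in both lines 1 and 3. Called in no other line in either direction were 12 rows.

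**Figure D2:**
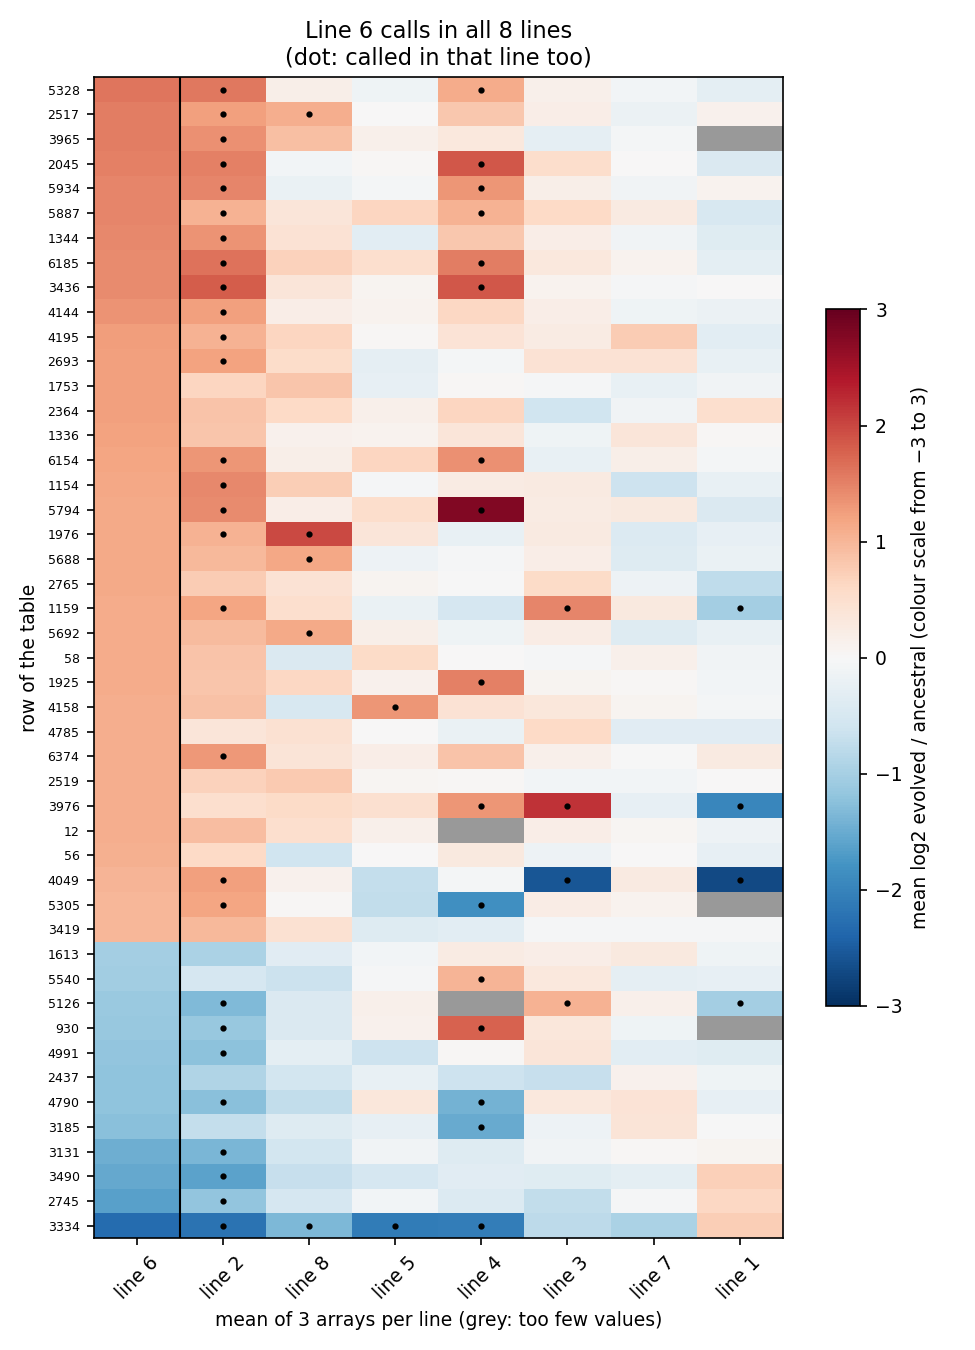
Mean log2 evolved over ancestral of the 47 rows called in line 6 (rows, in order of their mean in line 6) in line 6 and the other 7 lines (columns), with a dot where that line also called the row in either direction. All 47 rows have in line 2 the sign they have in line 6, and lines 7 and 1 hold 22 of 47 and 14 of 44 with that sign.

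Row 3334 was the most widely shared call. It was lower in the evolved clone in line 6 (−2.32), line 2 (−2.22), line 5 (−2.11), line 4 (−2.07) and line 8 (−1.35), all called. Its means were −0.96 in line 7 and −0.78 in line 3, which were not called, and 0.75 in line 1. Rows 5328, 2517, 2045 and 5934 were each called higher in line 6 and in 2 other lines. Row 2517 was shared with lines 2 and 8, and the other 3 rows with lines 2 and 4. Row 2045 had means of 1.50 in line 6, 1.51 in line 2 and 1.85 in line 4, and lay between −0.44 and 0.53 in the remaining lines. The dyes were never swapped, so a dye effect of a spot cannot be told apart from a change that lines share.

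The likeness of line 6 to line 2 went beyond the calls. All 47 line 6 calls had the same sign in line 2, beside 75.4% of all rows. Their median was 1.17 in the direction of the call in both lines, and 46 of the 47 reached 0.5 in line 2. Conversely, all 92 calls of line 2 had the same sign in line 6, where their median was 0.81 in the direction of the call, and 79 reached 0.5. The 64 calls of line 2 that were not called in line 6 had medians of 0.72, 0.65 and 0.68 on replicates 1, 2 and 3 of line 6. Of these 64, 63 had the direction of line 2 on replicate 1 and 64 on each of the others. On the arrays of line 8 the same 64 rows had medians from 0.0003 to 0.20. Calls in 1 line are chosen for their size there, so a smaller median in the other line is partly set by that choice.

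**Figure D3:**
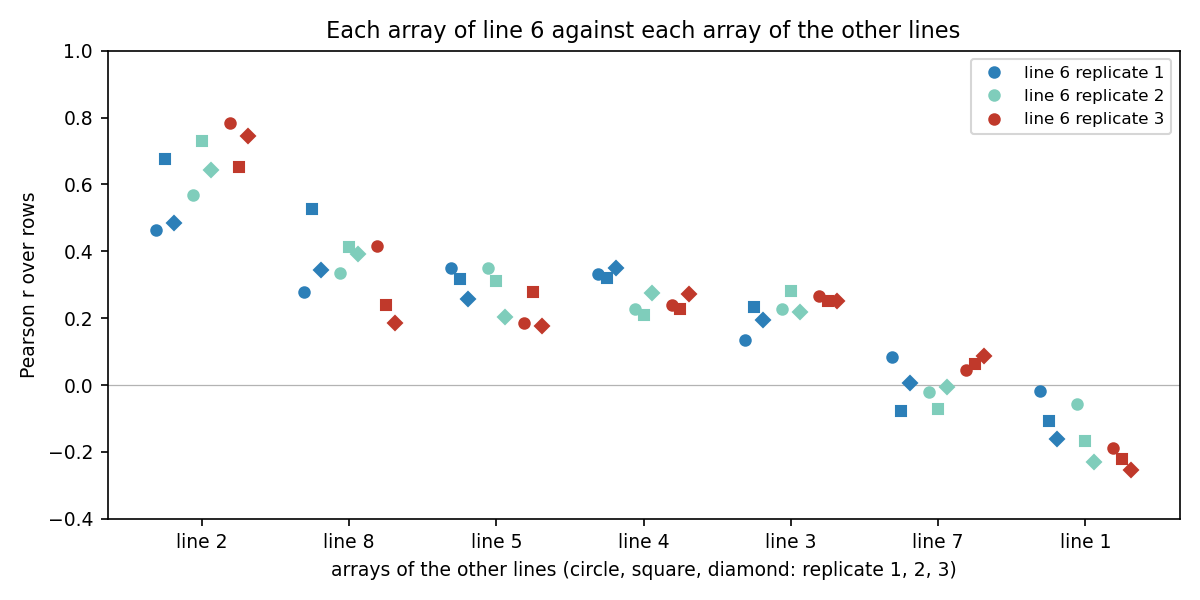
Pearson correlation over rows of each line 6 array (colour) with each array of the other 7 lines (symbol: replicate 1, 2 or 3 of that line). Replicate 3 of line 6 correlates at 0.785, 0.652 and 0.744 with the arrays of line 2, and no array of another line exceeds 0.527 with any line 6 array.

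Line 2 was the line whose mean was nearest, and single arrays departed from this in replicate 1. The mean of line 6 correlated over rows at 0.753 with line 2, 0.441 with line 8, 0.350 with line 5, 0.322 with line 4, 0.279 with line 3, 0.014 with line 7 and −0.193 with line 1 (6194 to 6356 rows). Without replicate 3 the correlation with line 2 was 0.658, and it remained the highest of the 7. Lines 6, 2 and 8 also had the fewest empty cells, at 58, 65 and 64, against 127 to 648 in the other groups. Whether the likeness of these lines goes with how their arrays were made or processed was not tested. Replicate 3 of line 6 correlated at 0.785, 0.652 and 0.744 with replicates 1, 2 and 3 of line 2. The correlation of replicate 3 with its own fellow replicate 1 was lower than each of these, at 0.468. For replicate 1 the values were 0.463, 0.676 and 0.485, and for replicate 2 they were 0.569, 0.729 and 0.643, so both were nearest to replicate 2 of line 2. Replicate 1 correlated at 0.527 with replicate 2 of line 8, above its values with replicates 1 and 3 of line 2. In 498 rows the mean of replicates 1 and 2 differed from the mean of line 2 by at least 0.5. In 58.4% of these, replicate 3 lay nearer to line 2 than to its fellow arrays. The same measure gave 25.5% of 239 rows for replicate 1 and 4.26% of 235 rows for replicate 2.

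Few rows differed by at least 2-fold between lines 6 and 2 in the test of the difference itself, while 765 rows (12%) passed its adjusted p alone. Limma called 8 of 6354 rows (0.126%), of which line 6 was higher in 7 and lower in 1, and none of the 8 was a line 6 call. Row 41 differed most, with 0.21, 0.60 and 0.73 in line 6 and −0.88, −0.64 and −0.54 in line 2, a difference of 1.20. Row 3620, the only one lower in line 6, had 0.26, 0.48 and 0.64 in line 6 and 1.42, 1.49 and 1.52 in line 2, a difference of −1.02. The arrays of the lines did not overlap in either row, and limma's adjusted p was 0.0063 and 1.39e-08. Without replicate 3 there were 21 called rows (0.331%), 19 higher and 2 lower, which held all 8. Counts against the other lines were larger, at 46 rows against line 8 (0.724%), 68 against line 5 (1.08%), 92 against line 3 (1.45%), 119 against line 7 (1.89%), 232 against line 1 (3.72%) and 432 against line 4 (6.97%).

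Of the 47 line 6 calls, 6 differed from line 2 by the adjusted p, by less than 2-fold, and all 6 were higher in line 6. This is 12.8% of the calls, beside 765 of 6354 rows (12%) over the whole table, so it is near the background and no result about the calls. Row 4785 differed most, with means of 1.10 in line 6 and 0.37 in line 2 (difference 0.73, limma's adjusted p = 0.0115). Row 1753 had 1.23 in line 6 and 0.65 in line 2 (difference 0.59, limma's adjusted p = 0.0161). The others were row 2519 (0.39), row 2364 (0.39), row 2765 (0.36) and row 1336 (0.36). None of the 6 was called in line 2, and each had the sign of line 6 there.

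The next comparison set line 6 against the mean of the other lines, which a row can differ from while line 2 lies near line 6. Against the mean of the other 7 lines 16 of 6070 rows were called (0.264%), 10 higher and 6 lower, and 14 of the 16 were line 6 calls. Row 4049 had the largest difference, 1.65 ± 0.18 (SE, limma's adjusted p = 4.19e-07). Its arrays read 1.01, 1.05 and 1.01 in line 6, and the line means ran from −2.70 in line 1 and −2.56 in line 3 to 1.24 in line 2. Line 6 thus lay inside the range of the others, and the lines below −2 were lines 1 and 3 alone. Rows 5328, 1344 and 1753 differed by 1.25, 1.16 and 1.10 and row 56 by 1.09, and in these 4 rows line 6 lay above all other line means. Line 2 was close in 2 of them, also called, with 1.61 in line 6 and 1.58 in line 2 for row 5328 and 1.45 in line 6 and 1.34 in line 2 for row 1344. The tests of line 6 against line 2 gave limma's adjusted p = 0.931 and 0.712 there. Over all 16 rows, 11 lay outside the range of the other 7 line means.

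Among rows lower in line 6 than the mean of the other lines, row 2745 had the largest difference, −1.31 ± 0.17 (SE). Its mean was −1.64 in line 6, while line 2 had −1.17 and the other 6 lines lay between −0.73 and 0.63. Row 3131 differed by −1.12, row 3490 by −1.09, row 3334 by −1.07 and row 5284 by −1.04. Rows 3131 and 3334 were also called in line 2, with −1.47 in line 6 and −1.38 in line 2, and −2.32 in line 6 and −2.22 in line 2 (limma's adjusted p of the differences = 0.743 and 0.861). Rows 3490 and 5284 were lower still in line 2, at −1.61 and −1.06, against −1.53 and −0.99 in line 6. Row 5284 missed the size of 1 in line 6 itself and was not a line 6 call. Without replicate 3 the difference of row 3334 was −0.97, and without replicate 2 those of rows 56, 3490 and 5284 were 0.87, −0.99 and −0.94, all under the size of a call. Leaving a single other line out of the mean also ended the call of row 56 (line 8), row 3334 (line 1 or 3), row 3490 (line 1) and row 5284 (line 4, 5 or 7). The other 6 named differences kept their call whichever array of line 6 or other line was left out.

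A stricter reading asked for a difference from each of the 7 other lines. In the direction of line 6, 13 rows passed the adjusted p against every line, and 0 did so with a size of at least 1 against every line. The 13 held 4 line 6 calls, rows 2364, 1336, 2765 and 4785, all higher in the evolved clone. Row 2364 read 1.14, 1.19 and 1.37 in line 6, and the highest other line mean was 0.84, in line 2. Row 1336 read 1.32, 1.13 and 1.13, beside 0.84 in line 2. Row 2765 read 1.02, 1.21 and 1.16, beside 0.77 in line 2. Row 4785 read 1.02, 1.41 and 0.87, and here the nearest line was line 3, at 0.60. Without replicate 3 all 4 rows still differed from each of the 7 lines. Row 2364 did so whichever array was left out. Row 4785 differed from 4 of the 7 lines without replicate 2, and its mean of 0.95 was then under the size of a call. A further 18 line 6 calls differed by the adjusted p from 6 of the other lines, and in 16 of these 18 line 2 was not among the 6. Over all rows tested, 142 (2.23%) differed from exactly 6 lines in this way and 13 (0.204%) from all 7. The calls were chosen for their size in line 6, which partly sets these counts.

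Leaving out replicate 3 raised the number of calls to 74 (1.16% of 6353 rows), 51 higher and 23 lower. Of the 47 calls 42 remained, 5 were lost and 32 were gained. All 32 gained rows were under a size of 1 in the mean of 3 arrays, and in 31 of them replicate 3 was smaller in the direction of the call than both other arrays. Rows gained in this way reach the size only without replicate 3, so that count is largely set by the choice. Without replicate 1 there were 51 calls, of which 44 were among the 47, and rows 12, 3976 and 5540 were lost. Without replicate 2 there were 37 calls, of which 36 were among the 47. The 11 lost then were rows 12, 56, 58, 1613, 2519, 3419, 3976, 4158, 4785, 5305 and 5540. Calls kept whichever array was left out numbered 33. The fit with 2 arrays takes their spread with that of the other groups.

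The gained rows were of more than 1 kind. In 11 of the 20 gained higher rows replicate 3 lay below 0. These 11 fall in the low set of 58 rows by its definition, as replicates 1 and 2 had a mean of at least 1. Rows 3971, 2238, 2128, 328 and 5413, the 5 highest without replicate 3, were of this kind. Their means on replicates 1 and 2 were 1.84, 1.53, 1.49, 1.41 and 1.28, and replicate 3 read −0.82, −0.44, −0.49, −0.69 and −0.38. The median of line 2 in these 11 rows was 0.05 in the direction of the call. In the other 9 gained higher rows and all 12 gained lower rows replicate 3 had the sign of the other arrays, and the median of line 2 was 0.87 in the direction of the call. Row 2129 was such a row, with −1.12, −1.04 and −0.76, and rows 770 and 5805 had −1.27, −0.97 and −0.68, and −1.16, −0.99 and −0.71. Row 1587 read −1.58, −0.73 and −0.68, so there replicate 1 alone lay below −1. Row 2178 read −0.52, −1.63 and −0.27, so there replicate 2 did.

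**Figure D4:**
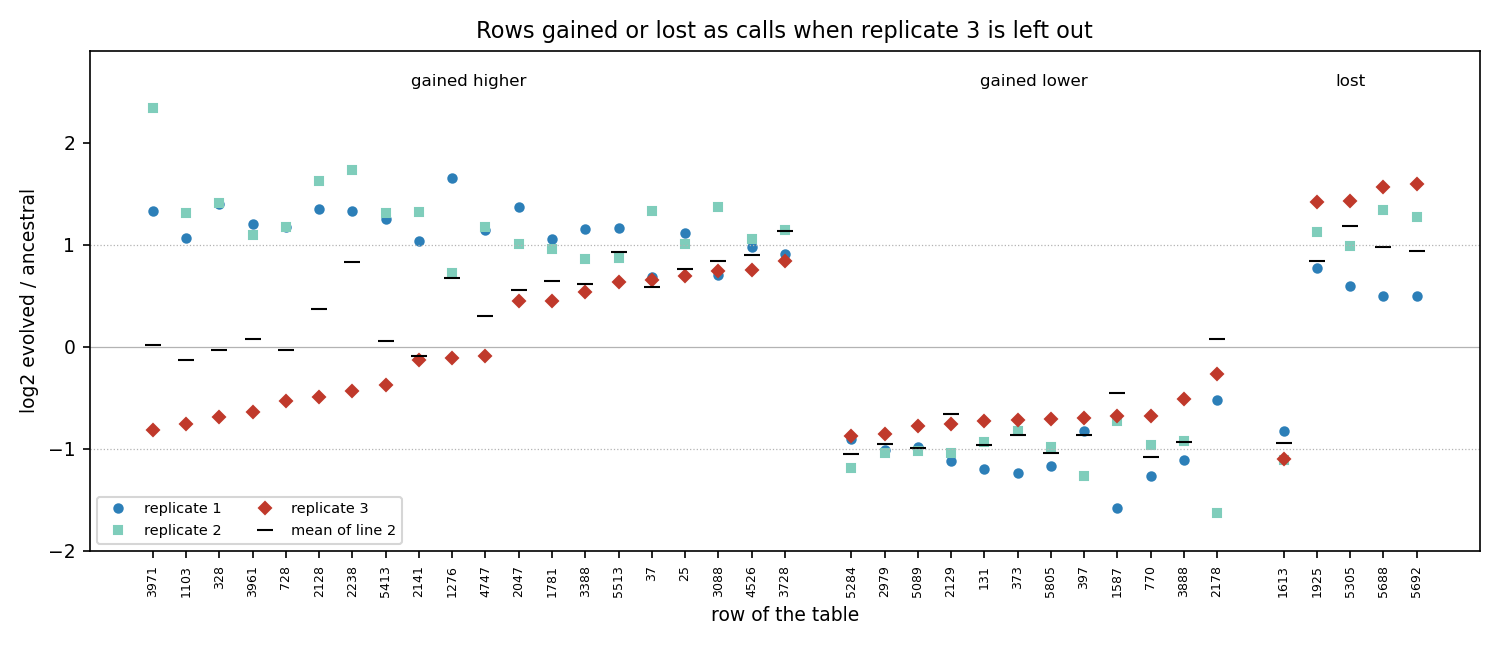
Log2 ratios of the 32 rows gained and the 5 rows lost as calls when replicate 3 is left out, by array of line 6 (points) with the mean of line 2 (bar), ordered within each panel by replicate 3, with dotted lines at 1 and −1. Replicate 3 lies between −0.82 and 0.84 in the rows gained as higher, 11 of 20 below 0, and between −0.87 and −0.27 in the rows gained as lower.

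The 5 lost calls had means of 1.00 to 1.13 in size with all 3 arrays, just past the limit. Rows 5688 and 5692 read 0.50, 1.34 and 1.57, and 0.50, 1.27 and 1.60, and their means without replicate 3 were 0.92 and 0.89. These rows stand 4 apart in the table and correlated at 0.961 over the 30 arrays. Row 1925 read 0.77, 1.12 and 1.42, and row 5305 read 0.59, 0.99 and 1.43. Row 1613 read −0.83, −1.11 and −1.10. In 4 of the 5, the rows called higher, replicate 3 gave the highest value of the 3 arrays. In row 1613 it lay between the other arrays.

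Without replicate 3, sharing between lines covered a smaller part of the calls. Then 41 of 74 were called in the same direction in another line and 33 were not. Line 2 shared 31, which is 41.9% of the 74 (background 1.45% of rows in line 2), and line 4 shared 15 (background 8.39%). Of the 32 gained rows 10 were called in another line and 4 in line 2, and 27 had the sign of line 2. Against the mean of the other lines 29 rows were called without replicate 3 (0.478%), 18 higher and 11 lower, and 9 of the gained rows were among them.

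Medians over stretches of the table also drifted in line 6, while neighbouring rows were only weakly alike, with correlations of 0.114 to 0.120 between adjacent rows. In windows of 200 rows, with each array centred on its median, the first had a median of 0.13, and the last full window and the final 177 rows had medians of 0.12 and 0.14. The other 29 windows of 200 rows lay between −0.08 and 0.10. The 28 rows at the top, listed as mitochondrially encoded, had medians, relative to the median of each array, of 0.38, 0.40 and 0.27 on replicates 1, 2 and 3. Their mean was 0.35, against −0.06 to 0.35 in the other lines, with 0.35 in line 4, 0.25 in line 2 and 0.23 in line 8. The 111 rows after them, listed on chromosome I, had medians on the same scale of 0.20, 0.24 and 0.20, a mean of 0.21 ± 0.02 (SD, n = 3), against −0.07 to 0.16 in the other lines. Rows listed on chromosome XVI, at the end of the table, had a mean of 0.12, against −0.01 to 0.12 in the other lines. Lines 2, 4 and 8 were near line 6 there, at 0.11, 0.10 and 0.12. Rows listed on the other chromosomes had means from −0.07 to 0.04 in line 6. Lines 6 and 2 parted in some of these. For rows listed on chromosomes IX and XI line 6 had −0.06 and −0.07, while line 2 had 0.05 and 0.09. The lowest of the other lines there had −0.04 and −0.05. Rows 12, 56 and 58 are line 6 calls in the top stretch. With a running median over 99 rows subtracted, the rows listed as mitochondrial and those listed on chromosome I each had a median of 0.02, by construction. Since other lists did not bear out the names, a place in the table is not taken for a place in the genome.

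**Figure D5:**
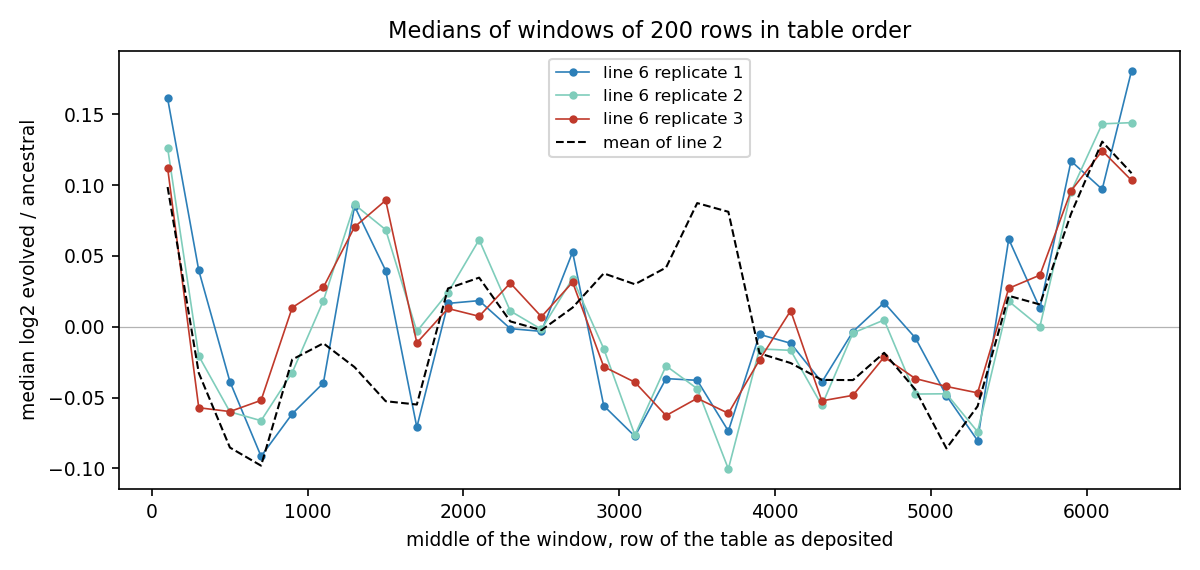
Median log2 evolved over ancestral in windows of 200 rows along the table as deposited, each array centred on its median, for the 3 arrays of line 6 (points) and the mean of line 2 (dashed). All 3 arrays are high at both ends of the table, between 0.10 and 0.18 in the first and the last window, and line 2 has 0.10 and 0.11 there. In the windows from row 2801 to row 3800 the arrays of line 6 lie between −0.10 and −0.02, and line 2 lies between 0.03 and 0.09.

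Rows listed as genes tied to heat or growth held none of the line 6 calls. The 8 lists of nuclear genes held 390 rows, with cytosolic ribosomal proteins, ribosome biogenesis factors, the proteasome, oxidative phosphorylation, histones, TORC1 and Sch9 signalling, stress and reserve carbohydrate genes, and heat-shock proteins and chaperones. In limma 0 of the 388 rows tested were called, beside 0.739% of all rows, while 166 had an unadjusted p under 0.05 and 91 did by the methods' t-test. On the adjusted p alone 34.5% passed, beside 40% of all rows. The list medians ran from −0.08 for rows listed as histones to 0.08 for rows listed as proteasome subunits, beside −0.01 over all rows. Since the names were not borne out, these values describe rows so listed and say nothing of the genes.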

How the data were processed

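RNA was measured on spotted 2-colour oligonucleotide arrays. The table deposited by the authors holds log2 ratios of evolved over ancestral, from which they had dropped dim spots before a LOWESS normalization of each array. Dyes were swapped on 0 arrays. Cells at −6.64, a floor (84 in the table, 0 in line 6), were set to missing. Scanner intensities were not used here. Groups were taken from the sample titles.

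All 30 arrays were fitted in 1 model with a mean for each of 10 groups in limma 3.58.1 (lmFit and eBayes, R 4.3.3), on rows with values on at least 2 of 3 arrays of each line compared. Calls needed a Benjamini-Hochberg adjusted p under 0.05 and a size of at least 1. The model was tested on simulated data. Correlations and counts were computed in Python 3.11.15 with pandas 2.3.3, scipy 1.17.1 and numpy 2.4.6.

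The text of the study does not name the test behind its threshold, and the methods' t-test here is one against 0. Rows named were the 10 highest and 10 lowest calls with 1 sign on all arrays, the 5 highest and 5 lowest differences from the other lines, the 5 most shared calls, and the 5 highest and 5 lowest calls gained, and all lost, without replicate 3. Other rows named were chosen after their values were seen. The members, lists and tests were chosen with earlier results of these data known. Of the listed names, 5840 are locus tags in the R64 annotation and 537 are not. The alternatives were other scalings, filters, fits and left-out arrays or lines. Replicate 3 alone and line 2 without its replicate 2 were chosen after seeing the data.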

Additional observations from a re-analysis of the deposited data

Results flagged for a closer look

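In tests of the difference between line 6 and other lines, limma called 8 rows against line 2, 46 against line 8, 68 against line 5, 92 against line 3, 119 against line 7, 232 against line 1 and 432 against line 4. Against the mean of the other 7 lines it called 16 rows. The 5 largest positive differences from that mean were 1.65 in row 4049, 1.25 in row 5328, 1.16 in row 1344, 1.10 in row 1753 and 1.09 in row 56. The 5 most negative were −1.31 in row 2745, −1.12 in row 3131, −1.09 in row 3490, −1.07 in row 3334 and −1.04 in row 5284. All 10 rows had the sign of that difference on all 3 arrays of line 6. Line 6 did not stand apart from the other 7 lines by Dixon's criterion in any of 23 measures of a line or 39 named rows. The criterion rests on the gap to the nearest line, so it passes over rows in which lines 6 and 2 stand apart together.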

How the results depend on the processing

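Of 86 alternative counts of called or shared rows, 17 moved by over 1.5 times, and the 28 alternative correlations with other lines stayed within the spread over arrays. That spread is the SD over the same arrays of line 6, so it is a lenient limit. Without replicate 3 the correlation with line 2 fell from 0.753 to 0.658, where the SD was 0.0955. No log2 ratio of a named row reversed in sign under the alternatives run. The correlation with line 7, near 0, went from 0.014 to −0.015 without replicate 3. Medians of some sets of listed rows also changed sign. Leaving out line 6 replicates in turn gave 37 to 74 calls in line 6, 11 to 29 rows differing from the mean of the other lines, 6 to 21 differing from line 2, and 6 to 33 calls not shared in direction with another line (31 to 41 shared). The highest counts were those without replicate 3, and the lowest those without replicate 2.

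With no fold minimum, 2542 rows passed in line 6, 1566 against the mean of the other lines and 765 against line 2, and 2352 of the 2542 were shared and 190 were not. The methods' t-test gave 17 calls unadjusted and 0 after Benjamini-Hochberg adjustment at the 2-fold size. Quantile normalization gave 66 calls, 34 higher and 32 lower, a share of higher rows of 51.5% against 74.5% as reported, and 23 calls not shared. It gave 10 higher and 9 lower rows against the mean of the other lines. With the running median removed, 5 rows differed from line 2. Against the mean of the others, 34 rows were called with line 2 left out, 10 with line 7 left out and 26 by size against the median of the other lines. The cause was not tested.

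The replicate number as a block gave 47 calls in line 6, 16 against the mean of the other lines and 8 against line 2, and changed no count. The arrays share only a number: same-numbered arrays of line 6 and another line deviated together at r over 0.1 in 4 of 21 pairs, and an array matched its own number best in 7 of 21. Array weights gave 45 calls. Replicate 3 alone had 50 rows past the fold, without a test. Of the rows named, with the running median removed, rows 56 (0.80), 1613 (−0.95) and 4049 (0.999, just under the limit) lost their calls and row 5805 (−1.01) gained one. No spot's signal over background was used here, so which small ratios rest on dim spots is unknown.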
